A study of Mus musculus with 6 samples.

Results

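The mouse mitochondrial genome contributed 37 of the 56941 genes in the deposited count table, chosen by the chromosome entry MT. They are 13 protein genes, 2 ribosomal RNA (rRNA) genes and 22 transfer RNA (tRNA) genes, and all 37 had the same start, end and strand in the GENCODE M21 annotation of GRCm38. PolyA RNA was sequenced from cells taken out of mouse lungs with magnetic beads, cleared of dead cells, kept in endothelial medium with serum and labelled primary endothelial cells, with PAECs in their titles. There were 3 libraries labelled FUNDC1-KO and EC-KO, and 3 labelled FUNDC1-FLOX and FL, which carry the floxed gene. Fundc1 encodes a receptor of the outer mitochondrial membrane for mitophagy, the removal of mitochondria by autophagy. The labels name no Cre driver, age, bead antibody or time in culture. They also do not say whether the libraries of a group are from different mice or cultures, and the p-values then cover the spread among libraries alone, which may be technical.

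The mitochondrial genome is a small circle that encodes core subunits of the respiratory chain and ATP synthase, together with the rRNAs and tRNAs needed to translate them. Both strands are transcribed as long precursors, and tRNAs between the other genes mark most of the places where the precursors are cut. Most mRNAs then receive a poly(A) tail and the rRNAs a short one, while tRNAs receive none, so libraries of polyA RNA record these classes unequally. All other proteins of mitochondria, including most respiratory chain subunits and all factors that copy, transcribe and translate the mitochondrial genome, are encoded in the nucleus. Endothelial cells make much of their ATP by glycolysis and are known to use mitochondria for signalling as well as for energy.

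Gene counts totalled 29723104 to 33474398 in EC-KO and 26658998 to 34306962 in FL libraries. Fundc1 was at 14.1, 18.2 and 12.8 CPM (counts scaled to library size, with TMM factors) in EC-KO 1, 2 and 3, against 25.1, 32.0 and 30.7 CPM in FL 1, 2 and 3, a log2 fold change of -0.96 ± 0.19 SE (edgeR, adjusted p = 0.00796), and it was detected in every EC-KO library. The 16 endothelial markers summed to 3813 to 7616 CPM in EC-KO and 10110.0 to 14102 CPM in FL, and the 15 epithelial markers to 11726 to 17348 and 1879 to 4487 CPM. Macrophage markers (12) summed to 756 to 1132 CPM in EC-KO and 1708 to 2457 CPM in FL, and 0 markers of these 3 lists were without counts. By edgeR, 10 of 16 endothelial and 11 of 12 macrophage markers were lower and 15 of 15 epithelial markers higher in EC-KO, where 13.5% of all genes tested were called in each direction. Fibroblast markers (11) summed to 1099 to 2205 CPM in EC-KO and 1036 to 1283 CPM in FL, and smooth muscle markers (8) to 269 to 383 and 521 to 774 CPM. Of these, 5 fibroblast markers were higher and 2 lower of 11, and 6 of 8 smooth muscle markers were lower. Erythroid and platelet markers (9 of 10 tested, the other without counts) summed to 129 to 267 CPM in EC-KO and 33.7 to 110 CPM in FL, with 6 of 9 higher. Values therefore describe a mixed isolate, and in bulk RNA fewer cells of a type and less RNA per cell cannot be told apart. What part the mixture has in the results that follow was not tested.

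Of the 37 genes, 16 passed the filter on low counts: the 13 protein genes, both rRNAs and the proline tRNA gene mt-Tp. Of the other tRNAs, 18 had 0 counts in every library, where a count of 0 allows up to 3 counts, or at most 0.113 CPM. The remaining mt-Tf, mt-Tn and mt-Tc had between 0 and 3 counts in each library. By contrast mt-Tp had 936, 612 and 559 counts in EC-KO 1, 2 and 3, against 562, 569 and 499 in FL 1, 2 and 3. It lies on the minus strand and is the last annotated gene before the noncoding control region, ending at base 15422. Its sequence (GENCODE M21, chrM:15356-15422, minus strand, 67 bases, 5′ to 3′) is shown because it is the 1 tRNA gene with a measurable signal, with the anticodon in capitals.
mt-Tp: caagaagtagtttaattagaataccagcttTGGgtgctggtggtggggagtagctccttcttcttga
Its level of 27.0, 19.2 and 17.3 CPM in EC-KO 1, 2 and 3 overlapped the 21.3, 17.4 and 15.2 CPM in FL 1, 2 and 3 (edgeR, log2 fold change 0.24 ± 0.22 SE, adjusted p = 0.452). The strand setting of the counting is not given in the sources used here, so reads from the opposite strand at this place cannot be told apart from the tRNA.

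A block of the mitochondrial genome has a near-identical copy on chromosome 1, and the authors' counting lists alignments to several places as unassigned. The copy is annotated as 7 pseudogenes. Gm28661, Gm10925, Gm28437, Gm10222 and Gm28439 were 100% identical over their aligned length to mt-Co2, mt-Atp6, mt-Co3, mt-Nd4l and the first 876 bases of mt-Nd4. Over their aligned length, Gm28438 and Gm29216 each differed by 1 base, from mt-Nd3 (T3C) and from the end of mt-Co1 (A1066T). Positions are counted from the first base of the mitochondrial gene, whose base is given first. Of the 492 bases of Gm29216, 483 were aligned, from base 1063 of mt-Co1 on. The bases of Gm29216 before them did not align, so A1066T lies near the edge of the aligned stretch. The first 60 aligned bases, which hold these 1-base differences, are shown 5′ to 3′ with the differing base in capitals. Within the aligned length 1 base is all that tells both genomes apart there (GRCm38, chrM:6390-6449 and chrM:9459-9518, plus strand, and chr1:24616129-24616188 and chr1:24613060-24613119, minus strand). The deposited table places these pseudogenes at other coordinates of chromosome 1, so its build differs from GRCm38 there.
mt-Co1: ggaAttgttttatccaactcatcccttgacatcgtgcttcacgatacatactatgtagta
Gm29216: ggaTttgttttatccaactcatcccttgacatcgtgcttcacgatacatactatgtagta
mt-Nd3: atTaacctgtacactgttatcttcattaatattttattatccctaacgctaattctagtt
Gm28438: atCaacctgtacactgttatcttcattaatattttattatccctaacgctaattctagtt
Windows of 100 bases were looked up on both strands of all other annotated transcripts. The share found elsewhere was 99.5% for mt-Co2, 99.5% for mt-Atp6, 99.9% for mt-Co3, 97.6% for mt-Nd3 and 98.5% for mt-Nd4l. It was 60.8% for mt-Nd4, 30.8% for mt-Co1 and 3.20% for mt-Nd2, and 0% for the other protein genes and both rRNAs. With windows of 50 bases it was 51.1% for mt-Co1, 8.19% for mt-Nd2, 7.61% for mt-Nd5 and 1.04% for mt-Rnr2, and still 0% for mt-Rnr1. Some of these windows lay in transcripts other than the 7 pseudogenes. Examples are Gm11512 and Gm13340 for mt-Co1, Gm13341 for mt-Co2, Gm13339 for mt-Nd2 and Gm20594 for mt-Rnr2. For mt-Atp8 the look-up sees annotated transcripts only, and 43 of its 204 bases overlap mt-Atp6.

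Members with a copy along nearly their whole length had low counts, so that their levels cannot be set against those of other members as abundance. The order that follows is of counted reads only and cannot rank these members. Per length, mt-Co1 (cytochrome c oxidase, complex IV) was the highest, at 12061 ± 2694 CPM per kb in EC-KO and 10399 ± 1627 CPM per kb in FL (SD, n = 3 each). mt-Co2 and mt-Co3, subunits of the same enzyme from the same precursor, were at 16.8 ± 2.95 and 14.6 ± 1.71 CPM per kb in EC-KO and at 11.3 ± 1.93 and 11.5 ± 2.14 CPM per kb in FL. mt-Atp6, mt-Nd3, mt-Nd4l and mt-Atp8 were between 3.41 and 14.1 CPM per kb in EC-KO and between 2.96 and 11.7 CPM per kb in FL. After mt-Co1 in the order of levels per length came mt-Cytb (5887 ± 1481 in EC-KO and 4074 ± 719 CPM per kb in FL), mt-Nd1 (3307 ± 792 and 2276 ± 390) and mt-Nd2 (2640 ± 663 and 1603 ± 308). In both groups the means of mt-Nd1 and mt-Nd2 differed by less than the sum of their SDs. Those of mt-Co1 and mt-Cytb, and of mt-Cytb and mt-Nd1, differed by more. Within each library the order of these genes was the same. mt-Nd1 was at 3751, 3778 and 2393.5 CPM per kb in EC-KO 1, 2 and 3, and mt-Nd2 at 2808, 3203 and 1909.5. In FL 1, 2 and 3 they were at 2726, 2030 and 2073, and at 1928, 1565 and 1314 CPM per kb.

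**Figure D1:**
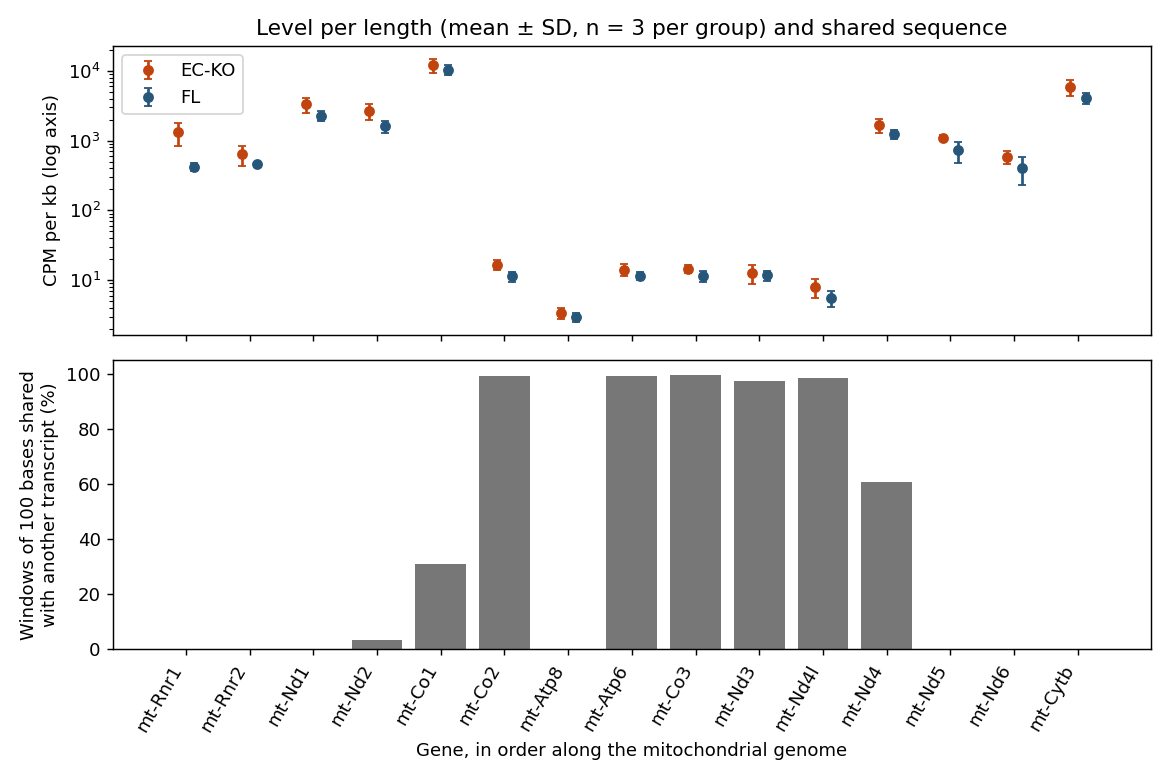
Upper panel: level of each mitochondrial protein and rRNA gene per length (CPM per kb, log axis, mean ± SD, n = 3 libraries per group), in genome order. Lower panel: percent of each gene's windows of 100 bases that also occur in another annotated transcript. The genes with 97.6% to 99.9% shared windows averaged at most 16.8 CPM per kb in both groups, as did mt-Atp8, while mt-Co1 with 30.8% was the highest by counted reads.

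The nuclear copies were counted in every library. Gm10925 had 1950, 1745 and 1215 counts in EC-KO 1, 2 and 3 and 1082, 1214 and 1401 in FL 1, 2 and 3. The identical mt-Atp6 had 372, 337 and 242 counts in EC-KO 1, 2 and 3 and 243, 242 and 236 in FL 1, 2 and 3, fewer than its copy in each library. The 7 copies summed to 3466 to 5066 counts in EC-KO and 3065 to 3647 in FL, and the 6 members mt-Co2, mt-Atp8, mt-Atp6, mt-Co3, mt-Nd3 and mt-Nd4l to 1048 to 1536 and 917 to 969. Of the copies 0 of 7 passed the test (median log2 fold change 0.34, range 0.28 to 0.80, groups overlapping in each; 0 of them had an unadjusted edgeR p under 0.05). Over all genes tested 27.1% were called and 45.4% did not overlap. Counts of mt-Co2, mt-Atp6, mt-Co3, mt-Nd3 and mt-Nd4l and of their copies cannot be assigned to 1 genome with certainty, a copy of mt-Atp8 was not measured, and mt-Nd4 and mt-Co1 share a part of their length with a copy.

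The mitochondrial genome took up 4.36%, 4.27% and 3.07% of all gene counts in EC-KO 1, 2 and 3, against 3.42%, 2.55% and 2.49% in FL 1, 2 and 3. EC-KO 3 lay below FL 1, so the groups overlapped, and the means were 3.90 ± 0.719% and 2.82 ± 0.519% (SD, n = 3 each). Without FL 1 the groups did not overlap, with a difference of 1.38 percentage points against 1.08 with all libraries. Leaving out EC-KO 3 instead also removed the overlap and gave a larger difference. FL 1 had the lowest endothelial sum (10110.0 CPM) and the highest epithelial sum (4487 CPM) of the FL libraries, and EC-KO 3 had the highest share of alignments without a feature (14.4%, against 10.8% and 10.5% in EC-KO 1 and 2 and 9.10% to 10.8% in FL). Epithelial sums were 11888, 17348 and 11726 CPM in EC-KO 1, 2 and 3. Their part in the mitochondrial share was not tested. Without the members from mt-Co1 to mt-Nd4, the shares were 1.97%, 1.93% and 1.37% in EC-KO 1, 2 and 3 and 1.34%, 1.01% and 0.910% in FL 1, 2 and 3, and the groups did not overlap. Alignments to several places were not counted, so the share of the whole genome can miss reads of members with a nuclear copy. Such alignments were 11.5%, 11.0% and 9.67% of all alignments in EC-KO 1, 2 and 3, against 9.89%, 9.11% and 9.10% in FL 1, 2 and 3. How many of them were mitochondrial was not measured.

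Among the 16 genes tested, mt-Rnr1 alone passed, and it was higher in EC-KO. In edgeR's quasi-likelihood test with Benjamini-Hochberg adjustment over all 18562 genes tested at a threshold of 0.05, 1 of 16 mitochondrial genes was called higher and 0 lower. Of all genes tested, 27.1% were called, 13.5% higher and 13.5% lower, so the members' count was not above that background. At an unadjusted p under 0.05, 5 of the 16 were higher and 0 lower, where 20.7% of all genes were higher. The log2 fold change was positive in all 16, with a median of 0.50 and a range of 0.12 to 1.65, against a median of 0.03 and 51.8% positive over all genes tested. The members share precursors and libraries and are not independent of each other. DESeq2 called 2 of the 16 higher, and limma-voom 1. Over all 18562 genes DESeq2 called 6191 in either direction and limma-voom 5129, where edgeR called 5029. Groups did not overlap in 3 of 16, mt-Rnr1, mt-Co2 and mt-Nd5, each with all EC-KO above all FL libraries, as in 22.6% of all genes tested (45.4% did not overlap in either direction).

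**Figure D2:**
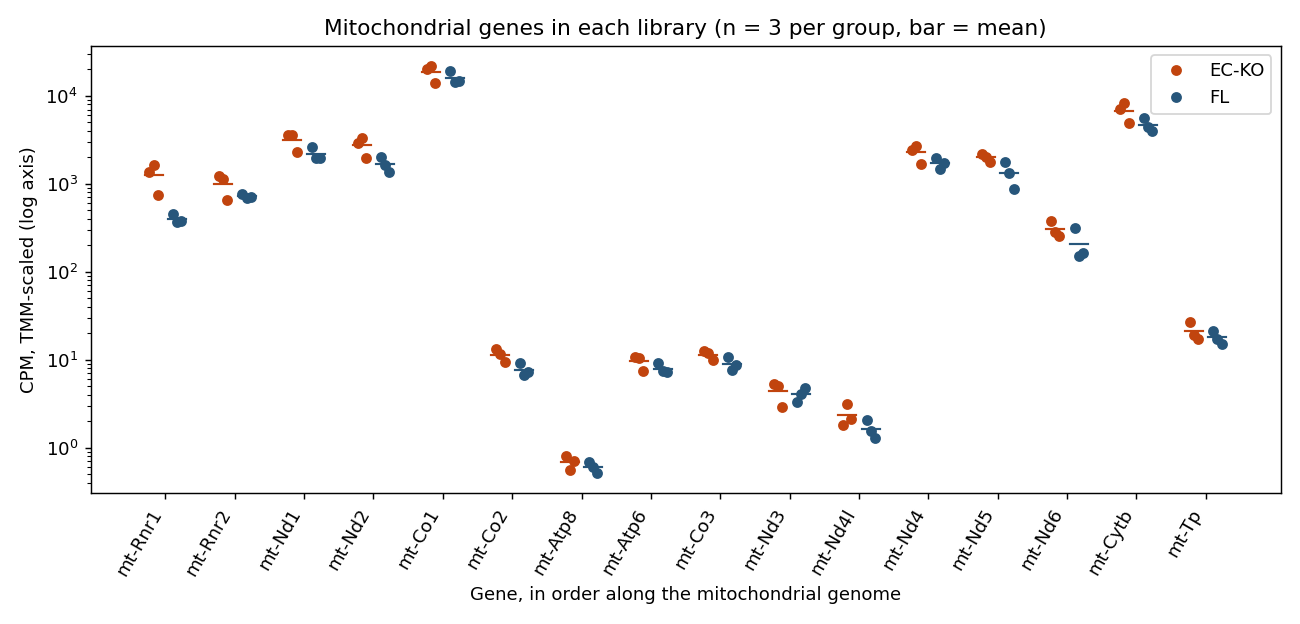
CPM with TMM scaling (log axis) of the 16 mitochondrial genes that passed the filter, in genome order, with 1 point per library, EC-KO left of FL, and a bar at the mean (n = 3 per group). For mt-Rnr1 the EC-KO libraries sit between 747 and 1649.8 CPM, all above the FL libraries at 364 to 457 CPM, and in 13 of the 15 other genes the groups overlap.

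mt-Rnr1 encodes the rRNA of the small subunit of the mitochondrial ribosome (ENSMUSG00000064337, bases 70 to 1024, plus strand). It was at 1368, 1649.8 and 747 CPM in EC-KO 1, 2 and 3, against 457, 364 and 379.6 CPM in FL 1, 2 and 3. The groups did not overlap, and even the lowest EC-KO library was above the highest FL library. Means were 1255 ± 462 CPM in EC-KO and 400.2 ± 50.2 CPM in FL (SD, n = 3 each). The fold change was 3.14, or 1.65 ± 0.28 SE on the log2 scale (edgeR, adjusted p = 0.00430). Leaving out 1 library at a time gave 1.37 to 1.90, with edgeR adjusted p-values of 0.00162 to 0.0264.

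mt-Rnr2, the rRNA of the large subunit (ENSMUSG00000064339, bases 1094 to 2675), is separated from mt-Rnr1 by a tRNA gene and comes from the same precursor. It was at 1241, 1121 and 649 CPM in EC-KO 1, 2 and 3, against 768, 685 and 706 CPM in FL 1, 2 and 3. EC-KO 3 was below all FL libraries while EC-KO 1 and 2 were above them. The log2 fold change was 0.48 ± 0.24 (SE) and did not pass (edgeR, adjusted p = 0.174), and without EC-KO 3 it was 0.70 and passed (edgeR, adjusted p = 0.0429).

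The ratio of the 2 rRNAs within a library does not depend on library size or scaling. Counts of mt-Rnr1 over mt-Rnr2 were 1.10, 1.47 and 1.15 in EC-KO 1, 2 and 3, against 0.596, 0.531 and 0.538 in FL 1, 2 and 3. In EC-KO the small-subunit rRNA had more counts than the large one in every library, and in FL fewer in every library. The means were 1.24 ± 0.201 and 0.555 ± 0.0357 (SD, n = 3 each), and the two-sided exact permutation p was 0.10, the smallest that 3 against 3 libraries allow. The ratio of mt-Rnr1 to mt-Cytb differed likewise, at 0.194, 0.200 and 0.152 in EC-KO 1, 2 and 3 and 0.0818, 0.0831 and 0.0944 in FL 1, 2 and 3, while mt-Rnr2 to mt-Nd1 was 0.346, 0.310 and 0.283 and 0.294, 0.353 and 0.356. These ratios were chosen after the fold changes had been seen.

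The last 60 bases of both rRNAs are shown 5′ to 3′, since capture of polyA RNA acts on A tails and on runs of A, with runs of at least 3 A in capitals (GENCODE M21, chrM:965-1024 and chrM:2616-2675, plus strand).
mt-Rnr1: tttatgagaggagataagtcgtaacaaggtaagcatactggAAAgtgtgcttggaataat
mt-Rnr2: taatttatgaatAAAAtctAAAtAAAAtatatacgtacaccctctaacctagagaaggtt
The share of A was 37.8% over the whole of mt-Rnr1 and 38.2% over mt-Rnr2, and the longest run was 5 and 7 bases. Tail lengths were not measured, and the part of tails in the ratio was not tested.

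**Figure D3:**
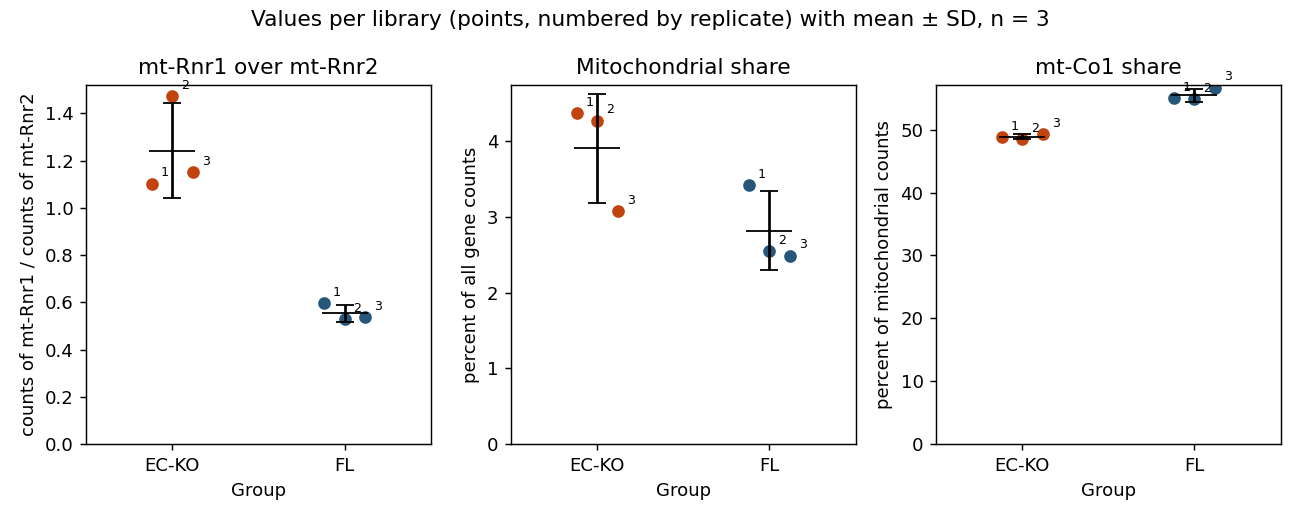
Values per library (points, numbered by replicate) with mean ± SD for EC-KO and FL (n = 3 each): counts of mt-Rnr1 over mt-Rnr2, percent of all gene counts on the mitochondrial genome, and percent of mitochondrial counts in mt-Co1. The ratio is 1.10 to 1.47 in EC-KO and 0.531 to 0.596 in FL, the mitochondrial share overlaps between groups, and the mt-Co1 share is 48.5% to 49.2% in EC-KO and 54.8% to 56.7% in FL.

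Of the 13 protein genes 0 passed the test in either direction (edgeR, 4 with an unadjusted p under 0.05, all higher; DESeq2 called 1 and limma-voom 0), with a median log2 fold change of 0.52 and a range of 0.12 to 0.72. Complex I (NADH dehydrogenase), the entry point of electrons from NADH, takes 7 of its subunits from the mitochondrial genome. mt-Nd2 had the smallest adjusted p of them. It was at 2915, 3325 and 1982 CPM in EC-KO 1, 2 and 3, against 2001, 1625 and 1364 CPM in FL 1, 2 and 3, so that EC-KO 3 fell just short of FL 1. Its log2 fold change of 0.72 ± 0.24 (SE) had an adjusted p of 0.0559 in edgeR, and 0.0157 in DESeq2, where it was called. DESeq2 called 6191 genes in all, against 5029 in edgeR. Without EC-KO 3 it was called in edgeR too, at 0.89 (adjusted p = 0.0350).

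mt-Nd1 was at 3589.5, 3616 and 2291 CPM in EC-KO 1, 2 and 3, against 2609, 1942 and 1984 CPM in FL 1, 2 and 3, with a log2 fold change of 0.54 ± 0.24 SE (edgeR, adjusted p = 0.119). mt-Nd5, the longest of these genes, was at 2197, 2020.0 and 1774 CPM in EC-KO 1, 2 and 3, against 1767, 1314 and 876 CPM in FL 1, 2 and 3, with a log2 fold change of 0.60 ± 0.26 SE (edgeR, adjusted p = 0.115). In mt-Nd5 the lowest EC-KO and the highest FL library were close, at 1774 and 1767 CPM, and the FL libraries spread more than those of EC-KO. mt-Nd4 was at 2438, 2728 and 1683 CPM in EC-KO 1, 2 and 3, against 1979, 1469 and 1715 CPM in FL 1, 2 and 3 (0.41 ± 0.23 SE, edgeR, adjusted p = 0.212). mt-Nd3 and mt-Nd4l, which lie in the block with a nuclear copy, had log2 fold changes of 0.12 and 0.52 and neither passed (edgeR, adjusted p = 0.789 and 0.286).

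mt-Nd6 is the 1 protein gene on the minus strand, and in human cells its mRNA is known to lack a long poly(A) tail. It was at 374, 286 and 254 CPM in EC-KO 1, 2 and 3, against 313, 152 and 162 CPM in FL 1, 2 and 3. FL 1 was above EC-KO 2 and 3, and the log2 fold change of 0.54 ± 0.29 SE did not pass (edgeR, adjusted p = 0.195). Without FL 1 it was 0.92 and passed (edgeR, adjusted p = 0.0238), as did mt-Nd5 at 0.83 (edgeR, adjusted p = 0.0474). The share of mt-Nd6 in the counts of protein genes was 0.961%, 0.681% and 0.947% in EC-KO 1, 2 and 3, against 0.942%, 0.599% and 0.650% in FL 1, 2 and 3 (two-sided exact permutation p = 0.20). With the members from mt-Co1 to mt-Nd4 left out, this share was 2.32%, 1.64% and 2.27% in EC-KO 1, 2 and 3. In FL 1, 2 and 3 it was then 2.55%, 1.62% and 1.92% (two-sided exact permutation p = 0.9). Without the counting's strand setting, reads of the opposite strand over this gene cannot be told apart from it, and 14 of its bases overlap mt-Nd5.

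mt-Cytb, the subunit of complex III (the cytochrome bc complex) that comes from this genome, was at 7046, 8251 and 4907 CPM in EC-KO 1, 2 and 3, against 5588, 4375 and 4020.3 CPM in FL 1, 2 and 3. FL 1 was above EC-KO 3, and the log2 fold change of 0.53 ± 0.24 SE did not pass (edgeR, adjusted p = 0.136). mt-Co1, the catalytic subunit of complex IV, was at 20273, 21728 and 13903 CPM in EC-KO 1, 2 and 3, against 18967, 14510.0 and 14725 CPM in FL 1, 2 and 3. Here EC-KO 3 was the lowest of all libraries, and the log2 fold change was 0.21 ± 0.24 SE (edgeR, adjusted p = 0.535). mt-Co2 was at 13.3, 11.8 and 9.31 CPM in EC-KO 1, 2 and 3, against 9.25, 6.78 and 7.19 CPM in FL 1, 2 and 3, a log2 fold change of 0.57 ± 0.22 SE that did not pass (edgeR, adjusted p = 0.0839). mt-Co3 (0.34), mt-Atp6 (0.28) and mt-Atp8 (0.21), the last of them with 17 to 28 counts per library, did not pass either (edgeR, adjusted p = 0.250, 0.380 and 0.736).

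**Figure D4:**
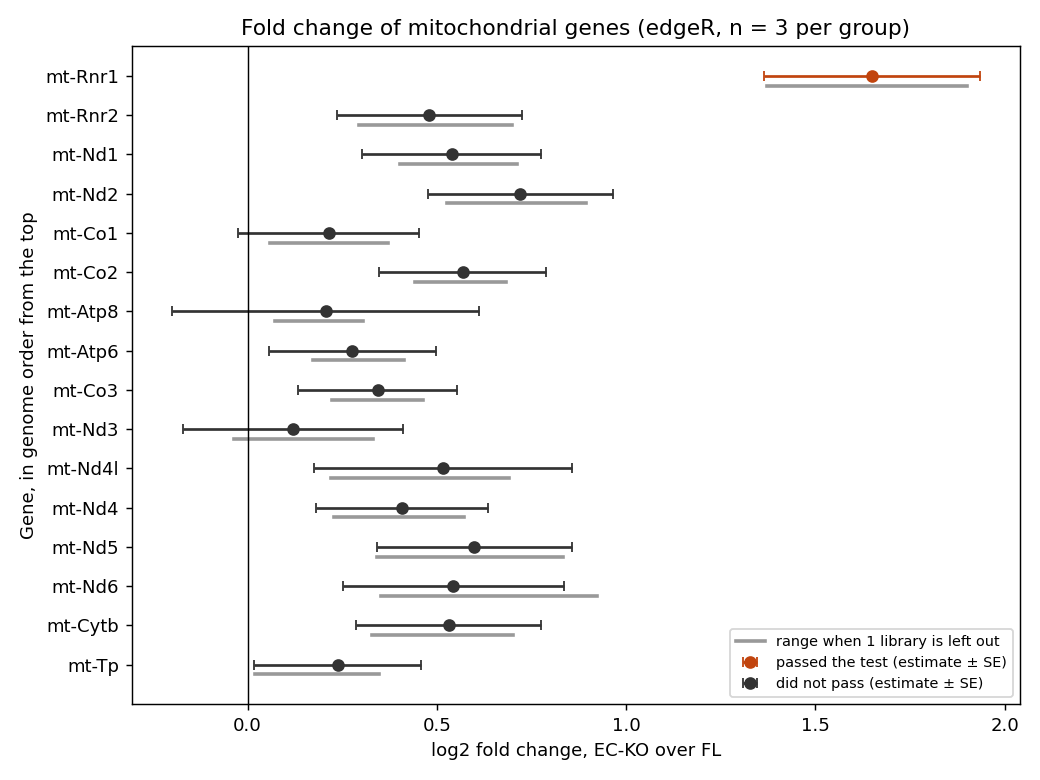
Estimated log2 fold change (EC-KO over FL) ± SE of the 16 mitochondrial genes tested, in genome order from the top, with a grey line for the range when 1 library is left out. mt-Rnr1 at 1.65 stands apart from the other 15, which lie between 0.12 and 0.72, and the grey line of mt-Nd3 crosses 0.

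Shares within the mitochondrial counts alone need no scaling between libraries. Groups did not overlap in 6 of 16 shares, or 37.5%. This is not above the 45.4% of all genes tested whose CPM, a measure of level and not of share, did not overlap in either direction. mt-Rnr1, mt-Nd1, mt-Nd2 and mt-Cytb had larger shares in EC-KO and mt-Co1 and mt-Atp6 smaller ones. For mt-Atp6 the margin was narrow, at 0.0265% in EC-KO 3 and 0.0267% in FL 1, and its counts cannot be assigned to 1 genome with certainty. mt-Co1 made up 48.8%, 48.5% and 49.2% of mitochondrial counts in EC-KO 1, 2 and 3, against 55.0%, 54.8% and 56.7% in FL 1, 2 and 3. mt-Nd2 made up 7.02%, 7.42% and 7.02% in EC-KO 1, 2 and 3, against 5.80%, 6.14% and 5.25% in FL 1, 2 and 3. mt-Cytb made up 16.97%, 18.4% and 17.4% in EC-KO 1, 2 and 3, against 16.2%, 16.5% and 15.5% in FL 1, 2 and 3. The rRNAs together made up 6.29%, 6.19% and 4.94% in EC-KO 1, 2 and 3, against 3.55%, 3.96% and 4.18% in FL 1, 2 and 3 (two-sided exact permutation p = 0.10, the smallest possible). Without the members from mt-Co1 to mt-Nd4 the groups overlapped, at 13.9%, 13.7% and 11.1% in EC-KO 1, 2 and 3 and 9.06%, 10.0% and 11.4% in FL 1, 2 and 3 (two-sided exact permutation p = 0.20). Most of that difference lay in mt-Rnr1, since mt-Rnr2 made up 2.60 ± 0.355% in EC-KO and 2.51 ± 0.256% in FL (SD, n = 3 each). Shares of 1 total move against each other, so a smaller share of mt-Co1 does not show a lower level.

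The nuclear partners of these subunits showed few called changes. Of 73 nuclear genes for complexes I, III, IV and V, 1 was called higher and 1 lower, against 13.5% of all genes tested in each direction, and their median log2 fold change was 0.09. In complex I, the 7 mitochondrial genes had a median of 0.54 and the 36 nuclear genes one of 0.06, with 0 of either called (edgeR, 2 of the nuclear genes with an unadjusted p under 0.05). In complex III, mt-Cytb at 0.53 stood beside a median of 0.10 over 9 nuclear genes, of which Uqcrh, the hinge protein, was called. It was at 73.8, 72.5 and 61.1 CPM in EC-KO 1, 2 and 3, against 47.1, 41.4 and 45.6 CPM in FL 1, 2 and 3 (0.63 ± 0.15 SE, edgeR, adjusted p = 0.0164). In complex IV the 3 mitochondrial genes had a median of 0.34 and the 12 nuclear genes one of 0.13, and Cox4i1, the most abundant of them by CPM, was at 104.8 ± 19.3 CPM in EC-KO and 81.4 ± 6.93 CPM in FL (SD, n = 3 each; edgeR, adjusted p = 0.157). In complex V, the ATP synthase, the medians were 0.24 over mt-Atp6 and mt-Atp8 and 0.10 over 16 nuclear genes. Atp5c1, the gamma subunit of its stalk, was called lower, at 69.6, 72.4 and 58.9 CPM in EC-KO 1, 2 and 3, against 86.7, 94.1 and 104.5 CPM in FL 1, 2 and 3 (-0.51 ± 0.16 SE, edgeR, adjusted p = 0.0413). Uqcrh was not called without EC-KO 1, FL 2 or FL 3 and Atp5c1 not without EC-KO 1, EC-KO 3, FL 2 or FL 3 (edgeR, adjusted p = 0.0652 to 0.135). Atp5c1 was also not called with library size only, no filter or a replicate block (edgeR, adjusted p = 0.0660, 0.0558 and 0.102). Counts of mt-Co2, mt-Co3, mt-Atp6, mt-Nd3 and mt-Nd4l cannot be assigned to 1 genome with certainty, and mt-Atp8 had 17 to 28 counts per library. The mitochondrial median of complex IV rests mostly, and that of complex V wholly, on these genes. Whether mitochondrial and nuclear subunits differ in their change was not tested.

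**Figure D5:**
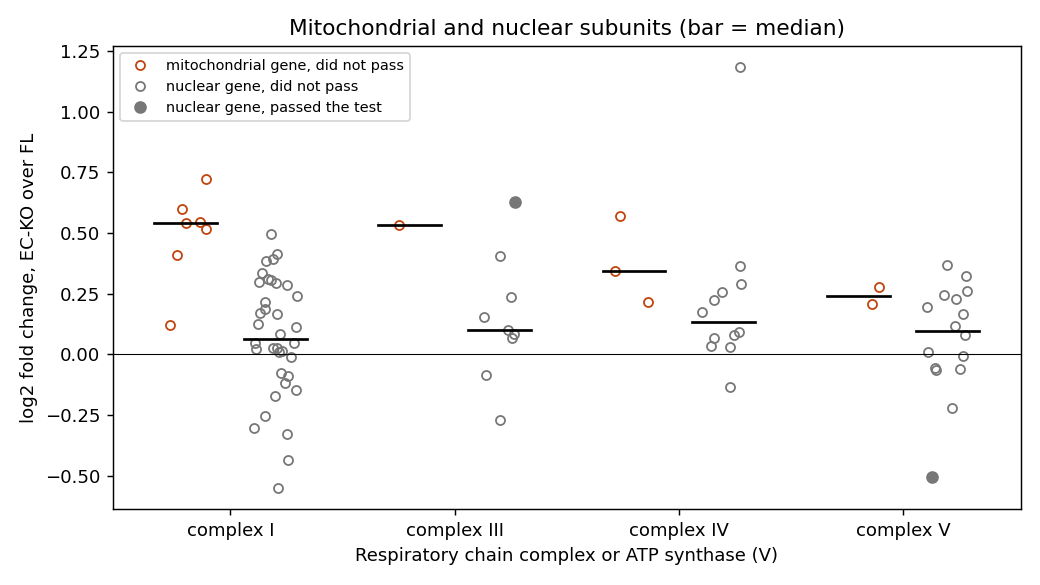
Log2 fold change (EC-KO over FL) of mitochondrial genes (left in each pair) and nuclear genes (right) for complexes I, III, IV and V, with 1 point per gene and a bar at the median. The 13 mitochondrial genes all lie above 0 without passing the test, and of 73 nuclear genes Uqcrh (0.63) and Atp5c1 (-0.51) passed. Counts of mt-Co2, mt-Co3, mt-Atp6, mt-Nd3 and mt-Nd4l cannot be assigned to 1 genome with certainty.

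Nuclear genes that transcribe, process and translate the mitochondrial genome moved in both directions. Of 65 listed genes 62 were tested, of which 5 were called higher and 6 lower (median -0.01), a smaller share than the 13.5% of all genes tested in each direction. Of 17 genes for transcription and replication 2 were higher. Tfb2m, the factor that opens the promoter for the mitochondrial RNA polymerase, was at 32.4, 20.7 and 33.1 CPM in EC-KO 1, 2 and 3, against 13.9, 13.7 and 12.3 CPM in FL 1, 2 and 3 (1.11 ± 0.21 SE, edgeR, adjusted p = 0.00658). It was above all FL libraries in each EC-KO library and was called in every comparison that left out 1 library. The other was Polg2, the accessory subunit of the mitochondrial DNA polymerase (0.62, edgeR, adjusted p = 0.0349). The polymerase Polrmt (-0.36) and the DNA-packaging transcription factor Tfam (0.37) did not pass (edgeR, adjusted p = 0.261 and 0.198), and these 2 were named after their values had been seen.

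Among 33 tested genes of RNA processing, modification and stability, 3 were higher and 2 lower, where 13.5% of all genes tested were called in each direction. Nsun4, a methyltransferase of the small-subunit rRNA that also acts in ribosome assembly, was at 22.6, 19.1 and 20.9 CPM in EC-KO 1, 2 and 3, against 15.2, 10.7 and 11.6 CPM in FL 1, 2 and 3 (0.74 ± 0.19 SE, edgeR, adjusted p = 0.0216). Supv3l1 (0.84), the helicase of the mitochondrial RNA degradosome, and Tbrg4 (0.80), an RNA-binding protein of the FASTK family, were higher too (edgeR, adjusted p = 0.0250 and 0.0293). Gtpbp3 (-0.99), a tRNA-modifying GTPase, and Fastkd1 (-0.94), another FASTK protein, were lower (edgeR, adjusted p = 0.0112 and 0.0142). Of 12 translation factors 0 were higher and 4 lower, beside the same 13.5% of all genes tested in each direction. The 4 were the elongation factors Gfm1 (-0.65) and Gfm2 (-0.80), of which the second acts in ribosome recycling, the initiation factor Mtif2 (-0.64), and Taco1 (-0.95), a translational activator of mt-Co1 (edgeR, adjusted p = 0.0143, 0.0106, 0.0249 and 0.0450). The number called depended on single libraries: higher calls in the whole machinery list numbered 1 without EC-KO 1, EC-KO 3, FL 2 or FL 3, 3 without FL 1 and 8 without EC-KO 2, and lower calls 2 without EC-KO 1 and 1 without FL 2. Gtpbp3 was called whichever library was left out. Gfm2 was not called without FL 2, Gfm1 and Fastkd1 not without EC-KO 1 or FL 2 (edgeR, adjusted p = 0.0503 to 0.0694). Nsun4, Tbrg4 and Mtif2 were not called without EC-KO 1, EC-KO 3, FL 2 or FL 3 (edgeR, adjusted p = 0.0593 to 0.126). Supv3l1 and Polg2 were called only without EC-KO 2 and Taco1 only without EC-KO 3 (edgeR, adjusted p = 0.0585 to 0.163 otherwise). With a replicate block Polg2, Mtif2 and Taco1 were not called (edgeR, adjusted p = 0.0819, 0.0687 and 0.0690), and Taco1 not with library size only (edgeR, adjusted p = 0.0803).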

How the data were processed

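The authors deposited raw counts per Ensembl gene, and a summary of alignments per class, also as counts. STAR 2.7.10b, featureCounts 2.0.3 and the build mm10 are listed without role or order, per the submitters' processing notes. Coordinates in the table equal those of GRCm38 for the mitochondrial genes but not for nuclear genes checked, such as the copies, so the build of the nuclear part is unresolved and no nuclear coordinate is taken from it. The sources used here give no strand setting. Gene lengths in bases are the authors' deposited values. Alignments to several places were 9.67% to 11.5% in EC-KO and 9.10% to 9.89% in FL and were not counted. The table holds 2 per-sample columns that match no sample and were not used.

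Counts were analysed with edgeR 4.0.16 in R 4.3.3 (filterByExpr, TMM, robust quasi-likelihood F test of EC-KO against FL, two-sided), which left 18562 of 33412 genes with any count. Fold changes are log2 values, and each SE is the absolute log2 fold change over the square root of F. CPM per kb is CPM over deposited length. Symbols come from GENCODE M21, matching 51948 of 56941 genes, and Prorp was matched through a RefSeq synonym. Sequences come from GENCODE M21 transcripts and copies were aligned with Biopython 1.88. Depth of 26658998 to 34306962 counts and 3 libraries per group limit precision. Alternatives were DESeq2 1.42.0, limma-voom 3.58.1, other scalings and filters, a replicate block and leaving out each library. The edgeR script was tested on simulated data. Every mitochondrial gene was to be accounted for. Per nuclear list, up to 3 called genes per direction by smallest p were named, or the most abundant where none was called, and Taco1 was added. 1 gene that this rule names is not reported here. Members and lists were chosen with earlier results of these data known. No p is given for the summed mitochondrial share. Figures were drawn with matplotlib 3.10.9.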

Additional observations from a re-analysis of the deposited data

How the results depend on the processing

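Limits: 3 libraries per group, polyA selection, an unknown strand setting, a mixed isolate and sequence shared with a nuclear copy. Of 223 comparisons of a mitochondrial gene's fold change with an alternative, 211 kept direction and side of the threshold, 9 newly passed and 3 changed sign. mt-Rnr1 was called in every alternative (1.37 to 1.90). mt-Nd2 was also called with library size only (adjusted p = 0.0285), no filter (0.0222), at least 1 CPM in 3 libraries (0.0457), the replicate block (0.0482), DESeq2 (0.0157) and without EC-KO 3 (0.0350), over a range of 0.0157 to 0.221, and the cause was not tested. The number of mitochondrial genes called higher was 2 with the first 5 of these and 1 to 3 with 1 library left out, and 0 were lower in any. mt-Nd3 ranged from -0.035 to 0.33 with 1 library left out. Called genes overall numbered 2547 to 6740 with 1 library left out. Machinery calls were then 1 to 8 higher and 1 to 8 lower, and calls of nuclear subunits 0 to 3 higher and 0 to 2 lower. Nuclear subunits called higher were 2 with library size only, 1 CPM in 3 libraries and DESeq2, and lower 0 with library size only, no filter and the block. Library size only shifted the median of all genes by 0.09. With 1 library left out, the difference in rRNA share was 1.67 to 2.34, in mitochondrial share 0.852 to 1.498 and in mt-Nd6 share 0.0673 to 0.239 percentage points. Without the members from mt-Co1 to mt-Nd4 the rRNA share differed by 2.71 points, against 1.91, and groups overlapped (exact permutation p = 0.20), the total being smaller by construction. The mt-Nd6 share then differed by 0.0425 points (exact permutation p = 0.9), against 0.133 with all members. Pairing by replicate number was not seen: deviations of same-numbered libraries correlated at 0.05, 0.07 and -0.18. With 3 libraries per group these values cannot show that the samples are unpaired. The mean paired difference in mitochondrial share was 1.08 points, which equals the difference of group means by construction and says nothing about pairing.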
